A study of Mus musculus with 2 samples.

Results

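The 10 genes described here encode inducible regulators of growth arrest and cell survival: the 3 Gadd45 genes (Gadd45a, Gadd45b and Gadd45g), Cdkn1a, Mdm2, Plk2, Plk3, Mcl1, Pim1 and Myc. They were taken by name, and all 10 were found by their Ensembl identifiers among the 55573 genes of the deposited count and FPKM tables. All of them had at least 10 reads in both libraries together, as did 14829 of the 55573 genes. RNA-seq was done on mesenteric arteries, the resistance vessels of the intestine, from wild type C57BL/6 mice that were 10 weeks old. In the control library the arteries had been in 5 mM K+ for 60 min, and in the depolarized library in 60 mM K+ for 60 min, as the labels give it. Each library pooled tissue from 2 mice, and no cell type was isolated from the vessel wall. In its methods for the arterial bed, the study describes cutting the control segment off beyond a ligature before the remaining tissue was perfused with the high K+ solution, so that segment and handling cannot be told apart from K+ if the sequenced arteries were prepared in this way. Those methods also state that tetrodotoxin, which blocks nerve activity, was in all solutions. With 1 library per condition there is no measure of the spread between animals, and no difference below was tested between the conditions.

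These genes belong to the fast response of a cell to stress, growth signals and Ca2+ entry. The transcription factor p53 switches on Cdkn1a, which encodes p21, an inhibitor of cyclin-dependent kinases that stops the cell cycle, and Mdm2, which encodes the ubiquitin ligase that removes p53 again. GADD45 proteins are small acidic proteins that bind cell cycle and repair proteins and the kinase MTK1 (Map3k4) upstream of p38 and JNK. PLK2 and PLK3 are polo-like kinases made as immediate early gene products, PIM1 is a constitutively active survival kinase made in response to cytokines through STAT3, MCL1 is a short-lived inhibitor of apoptosis of the BCL2 family, and MYC is a transcription factor that drives growth and is made from a short-lived mRNA.

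The control library held 10480918 reads on genes and the depolarized library 11289598. Smooth muscle markers were abundant in both libraries, with a summed level of 36787 CPM (reads per 1000000 TMM-scaled reads) in 5 mM K+ and 40420 CPM in 60 mM K+ over 7 genes. Endothelial markers summed to 3032 and 4136 CPM, and fibroblast markers to 6437 and 5289 CPM. Macrophage markers summed to 33.5 and 25.6 CPM over 7 genes, and of 5 neutrophil markers 3 had 0 reads in both libraries and the other 2 had 1 read or fewer per library. Adipocyte markers summed to 125 and 103 CPM over 4 genes, and pancreatic markers to 11.4 and 39.5 CPM over 6 genes. T and B cell markers summed to 0.621 and 0.762 CPM over 5 genes, and the 2 hemoglobin genes matched to 38.3 and 23.3 CPM. The smooth muscle, endothelial and pancreatic sums were therefore higher in 60 mM K+, and the fibroblast, macrophage, adipocyte and hemoglobin sums lower. Single markers did not all follow these sums. Of the 7 smooth muscle markers 5 lay above 0, while Smtn lay at -0.14 and Lmod1 at -0.16. Tagln had only 314 and 387 reads. Of the 6 endothelial markers 4 lay above 0, while Kdr, with 168 and 73 reads, was called lower at -1.10 and Emcn, with 21 and 11 reads, lay at -0.83. The adipocyte sum was carried by Fabp4, with 1060 and 951 reads at -0.06, while Plin1 at -2.39 and Adipoq at -1.04 were called lower and Cidec lay at -0.90. Of the 5 pancreatic markers with at least 10 reads, 4 were called higher, with a median of 3.27. Pnlip had 2 and 61 reads and Ctrb1 21 and 129, while Cpb1, with 98 and 138 reads, lay at 0.60. The part of these differences in the values below was not tested. In bulk tissue, fewer cells of a type and less RNA per cell cannot be told apart.

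All 10 genes had more reads in the depolarized library. Changes are given as log2(fold-change) of 60 mM K+ over 5 mM K+ after scaling the reads by the trimmed mean of M-values (TMM), and each carries a 95% exact interval that covers counting error only, not the spread between mice. For all 10 genes this interval lay above 0. Of them, 5 (Pim1, Myc, Gadd45a, Cdkn1a and Mcl1) lay above a log2(fold-change) of 1, called higher below, and 0 of 10 lay under -1. Over all 14829 genes with at least 10 reads, 5.54% were called higher and 5.86% called lower. Of all calls 48.6% were thus higher, against 31.9% when libraries were scaled by their total counts. Because low counts spread more widely, the share called higher was also taken among the 6549 genes with at least 500 reads; it was 3.24% there, and 4 of the 9 genes of this set that reached 500 reads were called higher. The median of the 10 genes was 1.06, beside -0.0047 for all genes with at least 10 reads and 0.08 for those with at least 500. The 10 genes had been chosen with earlier results of these data known, so these shares describe them and test nothing.

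**Figure D1:**
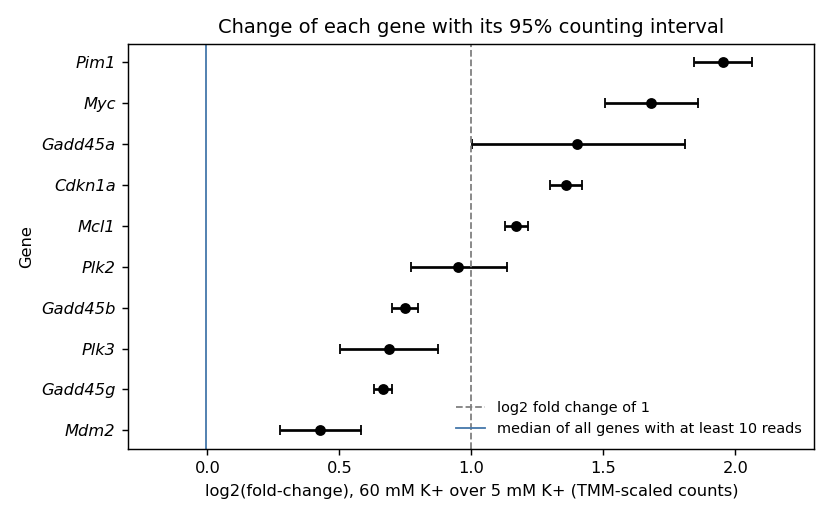
Horizontal axis: log2(fold-change) of 60 mM K+ over 5 mM K+ for each of the 10 genes, with bars for the 95% counting interval; the dashed line marks 1 and the blue line the median of all genes with at least 10 reads. Pim1 lies farthest to the right at 1.95 and Mdm2 farthest to the left at 0.43, and no interval reaches the median of all genes.

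In order of size the changes ran from Pim1 (1.95) through Myc (1.68), Gadd45a (1.40), Cdkn1a (1.36), Mcl1 (1.17), Plk2 (0.95), Gadd45b (0.75), Plk3 (0.69) and Gadd45g (0.67) to Mdm2 (0.43). Between most neighbors in this order the counting intervals overlapped. They were apart between Cdkn1a and Mcl1 and between Gadd45g and Mdm2. Among all genes with at least 10 reads, 1.36% had a log2(fold-change) as high as that of Pim1 and 3.16% as high as that of Cdkn1a. The share was 10.2% for Gadd45g and 17.7% for Mdm2, which lay least toward the upper end of the 10 genes.

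**Figure D2:**
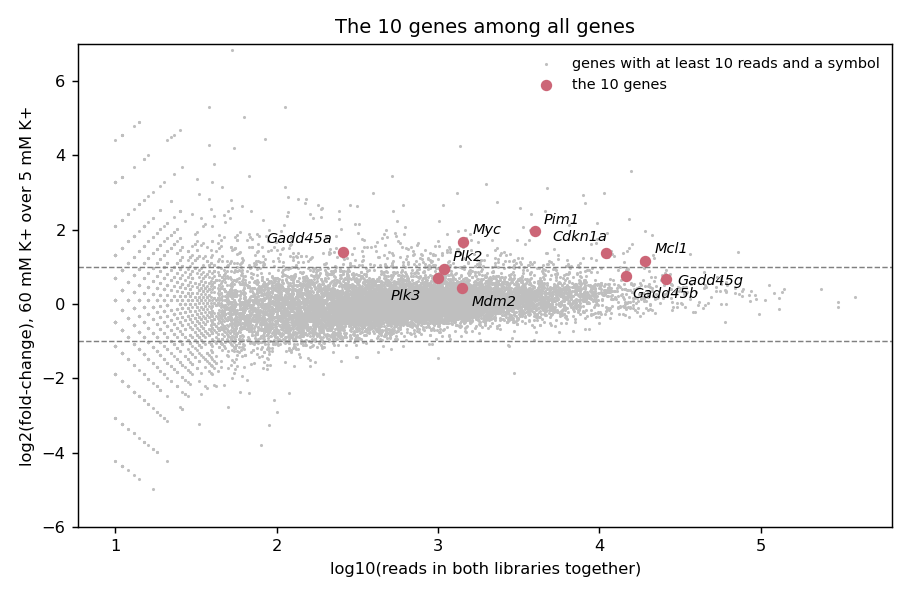
Vertical axis: log2(fold-change) of 60 mM K+ over 5 mM K+; horizontal axis: log10 of the reads in both libraries together. Gray points are genes with at least 10 reads and a symbol, red points the 10 genes, and dashed lines mark 1 and -1; 9 of the red points lie at 500 reads or more, where the gray cloud is narrow, and Gadd45a lies at 256 reads.

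Levels were compared between genes as deposited FPKM, which divides the reads by gene length and by the total reads of a library. The authors' FPKM values are not TMM-scaled, and a log2 ratio of FPKM is therefore lower by 0.21 than the log2(fold-change) given here, for every gene. In 5 mM K+ the levels covered a 108-fold range, from Gadd45g at 1034 FPKM to Gadd45a at 9.61 FPKM. In between lay Gadd45b (605 FPKM), Mcl1 (278), Cdkn1a (221), Pim1 (63.3), Mdm2 (35.4), Plk2 (23.3), Myc (20.2) and Plk3 (16.2). Of these neighbors, only Plk2 and Myc had overlapping counting intervals. In 60 mM K+ the range was 64.7-fold, and the order of the first 5 genes did not change. Myc, at 56.1 FPKM, stood above Mdm2 (41.3) and Plk2 (38.9), whose intervals overlapped, and Plk3 (22.6) and Gadd45a (21.9) overlapped as well. By rank among all listed genes, Gadd45g moved from position 58 to 46, Gadd45b from 129 to 90, Mcl1 from 352 to 179, Cdkn1a from 430 to 201, Pim1 from 1765 to 498 and Myc from 5072 to 1976.

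**Figure D3:**
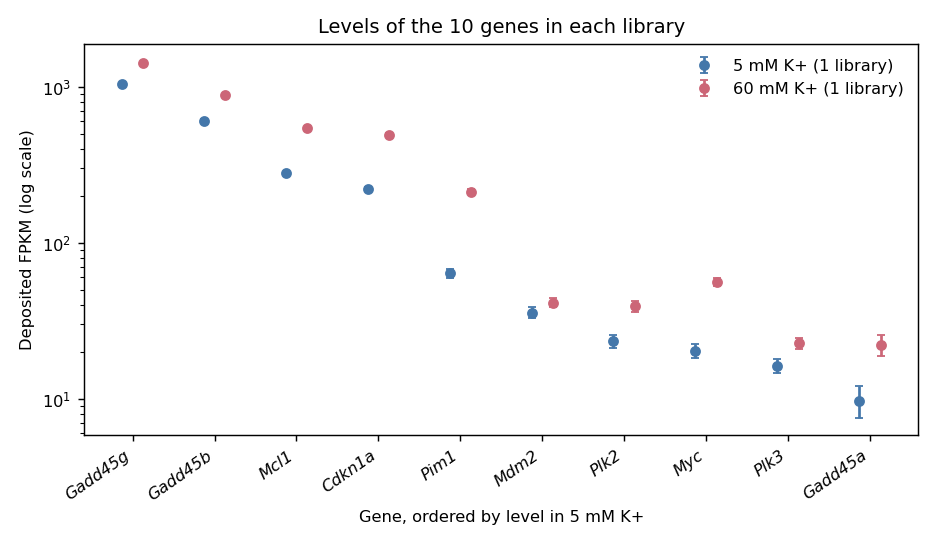
Vertical axis: deposited FPKM on a log scale for each of the 10 genes, in the 5 mM K+ library (blue) and the 60 mM K+ library (red), with bars for the 95% Poisson counting interval. The red point lies above the blue point for every gene, from 35.4 and 41.3 FPKM for Mdm2 to 63.3 and 212 FPKM for Pim1.

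Gadd45g (chromosome 13, 51942047 to 51943837 on NCBIM37, which is mm9) was the most abundant of the 10 genes, with 10479 reads in 5 mM K+ against 15490 in 60 mM K+, a log2(fold-change) of 0.67 with a counting interval from 0.63 to 0.70. Gadd45b (chromosome 10, 80392836 to 80394949) had 5670 and 8883 reads, a log2(fold-change) of 0.75 (0.70 to 0.80). Both genes were thus already high in 5 mM K+ and higher by less than a log2(fold-change) of 1 in 60 mM K+. Gadd45a (chromosome 6, 66985090 to 66987451), the member of the family best known as a p53 target, was scarce, with 74 reads in 5 mM K+ against 182 in 60 mM K+. Its log2(fold-change) of 1.40 was the largest of the family and had the widest interval of all 10 genes, from 1.00 to 1.81. The lincRNA gene E230016M11Rik overlaps 859 bp of Gadd45a on the opposite strand and had 20 and 13 reads; no source used here states whether strand was used in counting, and the value of Gadd45a is uncertain for that reason. Of the summed FPKM of the family, Gadd45g held 62.7% in 5 mM K+ and 61.1% in 60 mM K+, Gadd45b 36.7% and 37.9%, and Gadd45a 0.583% and 0.945%. The composition of the family therefore moved little, while its summed level was 1649 FPKM in 5 mM K+ and 2321 FPKM in 60 mM K+.

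The sequences upstream of the 3 genes are shown so that the abundant pair and the scarce member can be set side by side. Each line gives the 150 bases before the transcription start, 5′ to 3′ on the strand of the gene, from RefSeq on GRCm38.p6, and capitals mark the TATA box letters TATAAA. Gadd45a lies at chr6:67037408-67037557 (- strand), Gadd45b at chr10:80929941-80930090 (+ strand) and Gadd45g at chr13:51846525-51846674 (+ strand).
Gadd45a: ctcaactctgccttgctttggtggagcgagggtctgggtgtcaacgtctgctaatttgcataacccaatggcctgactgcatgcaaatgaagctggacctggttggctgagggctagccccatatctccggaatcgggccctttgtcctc
Gadd45b: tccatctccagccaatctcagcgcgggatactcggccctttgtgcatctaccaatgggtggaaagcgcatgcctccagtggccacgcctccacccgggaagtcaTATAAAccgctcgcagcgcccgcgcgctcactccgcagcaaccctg
Gadd45g: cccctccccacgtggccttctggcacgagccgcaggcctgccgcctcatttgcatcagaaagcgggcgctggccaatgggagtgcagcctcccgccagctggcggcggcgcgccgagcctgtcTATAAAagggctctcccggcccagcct
The letters TATAAA lay 46 to 41 bases before the start of Gadd45b and 27 to 22 bases before that of Gadd45g, and were not found in the 250 bases before that of Gadd45a. In the whole table, 12.4% of 32851 promoters had these letters on either strand within 250 bases of the start.

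Among the p53-linked genes, Cdkn1a (chromosome 17, 29227924 to 29237667) had 3259 reads in 5 mM K+ against 7790 in 60 mM K+, a log2(fold-change) of 1.36 (1.30 to 1.42). Its level was 221 and 490 FPKM. It was the most abundant inhibitor of its family in both libraries, with 83.1% of the summed FPKM in 5 mM K+ and 90.9% in 60 mM K+. Its relatives were Cdkn1b, which encodes p27, with 1098 and 1167 reads at 0.19, and Cdkn1c, which encodes p57, with 102 and 170 reads at 0.84. Mdm2 (chromosome 10, 117125944 to 117147814) had 626 and 785 reads, the smallest change of the 10 genes at 0.43 (0.27 to 0.58). Mdm4, which encodes the partner of MDM2 in holding p53 down, had 1190 and 874 reads, a log2(fold-change) of -0.34 (-0.47 to -0.22). The ratio of Mdm2 to Mdm4 in FPKM was 0.674 in 5 mM K+ and 1.15 in 60 mM K+, so that the order of the pair differed between the libraries. Trp53 itself, the gene of p53, had 627 and 528 reads and lay at -0.15 (-0.32 to 0.02), an interval across 0. A list of p53 and its regulators had 10 genes that reached 10 reads, of which 0 were called higher and 1 lower, with a median of -0.07. The lower gene was Atm, which encodes a DNA damage kinase, with 158 and 68 reads at -1.11 (-1.55 to -0.70), and the highest by FPKM were the ribosomal protein genes Rpl5 (432 FPKM in 5 mM K+ and 457 in 60 mM K+) and Rpl11 (425 and 484), at 0.29 and 0.39.

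Cdkn1a and Mdm2 were set beside 24 other p53 target genes that reached 10 reads, of a list of 25. Of these, 2 were called higher, 1 was called lower and 21 were not called, with a median log2(fold-change) of 0.14. The higher pair were Epha2, a receptor tyrosine kinase gene, with 181 and 404 reads at 1.26, and Tnfrsf10b, a death receptor gene, with 110 and 229 reads and 1.16. The called lower gene, Gtse1, had 20 reads in 5 mM K+ against 7 in 60 mM K+. Fas, another death receptor gene, lay just under the line at 0.99, with 492 and 913 reads. Other classic targets lay lower: Bbc3, which encodes PUMA, at 0.85, Bax at 0.41, Ccng1 at -0.36 and Sesn1 at -0.56. The most abundant gene of the list was Btg2, with 31781 and 29436 reads at -0.01.

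PLK2 and PLK3 act in the stress and cell cycle checkpoint responses, unlike PLK1 and PLK4, which serve mitosis and centriole duplication. Plk2 (chromosome 13, 111185252 to 111191052) had 388 reads in 5 mM K+ against 699 in 60 mM K+, a log2(fold-change) of 0.95 (0.77 to 1.13), just under the line of 1. Plk3 (chromosome 4, 116801260 to 116806568) had 399 and 599 reads, a log2(fold-change) of 0.69 (0.50 to 0.87). It shares 84 bp at its end with Tctex1d4 on the opposite strand, which had 2 and 0 reads. Plk2 and Plk3 together made up most of the polo-like kinase mRNA in both libraries, with 55.1% and 38.4% of the summed FPKM in 5 mM K+ and 60.7% and 35.2% in 60 mM K+. Plk4 had 48 and 49 reads, Plk1 had 7 and 6 reads, and Plk5 had 0 and 2 reads. Plk1 and Plk5 were thus at too few reads for a comparison.

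The study is about signaling to the transcription factor CREB, and the cAMP response element (CRE) is the site that CREB binds. The upstream sequences of Plk2 and Plk3 are shown because they were, of the 9 genes with an entry in the RefSeq promoter table, the pair with CRE letters within 250 bases of the start. In the lines below, the last 150 of these bases are printed 5′ to 3′ on the strand of the gene, and capitals mark the full CRE, TGACGTCA, or its core, TGACG. Plk2 lies at chr13:110394894-110395043 (+ strand) and Plk3 at chr4:117133964-117134113 (- strand), both on GRCm38.p6.
Plk2: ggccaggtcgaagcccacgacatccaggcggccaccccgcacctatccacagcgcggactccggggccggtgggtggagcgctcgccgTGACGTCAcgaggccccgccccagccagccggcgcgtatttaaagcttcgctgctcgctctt
Plk3: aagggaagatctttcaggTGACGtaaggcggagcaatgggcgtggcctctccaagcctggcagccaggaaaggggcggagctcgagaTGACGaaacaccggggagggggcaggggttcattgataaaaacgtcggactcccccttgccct
The full CRE lay 62 to 55 bases before the start of Plk2. It reads the same on both strands and contains the core on each of them. In Plk3 the core occurred from 132 to 128 and from 63 to 59 bases before the start. Of all 32851 promoters, 1.55% had the full CRE and 17.8% the core on either strand in the same window. The AP-1 letters TGACTCA and the CArG box bound by SRF were found in 0 of 9 genes, and 4.46% and 1.47% of all promoters held them. Of the genes called higher, Pim1, Cdkn1a, Mcl1 and Gadd45a had none of the 5 motifs in this window at any start listed, and Myc has no entry. A match, or the lack of one, describes letters in this window only and says nothing about binding.

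Pim1 (chromosome 17, 29627757 to 29632390) had 861 reads in 5 mM K+ against 3110 in 60 mM K+, the largest change of the 10 genes at a log2(fold-change) of 1.95 (1.84 to 2.06), or 3.88-fold. Its level was 63.3 FPKM in 5 mM K+ and 212 FPKM in 60 mM K+. The lincRNA gene Gm16912 overlaps 1114 bp of Pim1 on the opposite strand in the mm9 annotation and is not among the genes of the deposited counts. Its reads therefore cannot be checked, and the value of Pim1 is uncertain for the same reason as that of Gadd45a. Of the other PIM kinase genes, Pim3 had 1778 and 2833 reads, a log2(fold-change) of 0.77 (0.69 to 0.86), and Pim2 had 105 and 120 reads, 0.29 (-0.10 to 0.69). Pim3 held 61.5% of the summed PIM FPKM in 5 mM K+, and Pim1 held 54.2% in 60 mM K+, so that the most abundant PIM gene differed between the libraries. Of the 4 PLK and PIM relatives with at least 10 reads, 0 were called in either direction, and the median was 0.21. In a list of 9 genes of STAT3 signaling and of MCL1 turnover, 2 were called higher and 0 lower, with a median of 0.27. These were Socs3, the feedback inhibitor of STAT3 signaling, with 4161 and 11839 reads at 1.61, and Trib1, a pseudokinase gene, with 749 and 1826 reads and 1.39. Stat3 lay at 0.92, with 3109 and 5470 reads, and the receptor genes Il6ra at 0.14 and Il6st at 0.09. Il6st encodes the receptor subunit that the cytokines of this family share, and it had 4607 and 4575 reads.

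Mcl1 (chromosome 3, 95462643 to 95467099) had 6224 reads in 5 mM K+ against 13050 in 60 mM K+, a log2(fold-change) of 1.17 (1.13 to 1.21). With levels of 278 and 541 FPKM it was the most abundant of the 4 anti-apoptotic BCL2 genes compared, with 63.1% of their summed FPKM in 5 mM K+ and 79.2% in 60 mM K+. The next, Bcl2l1, which encodes BCL-XL, had 1587 and 1491 reads and lay at 0.01 (-0.09 to 0.11). Bcl2l2 lay at 0.06 and Bcl2 at -0.18, with 379 and 311 reads. Per FPKM, Mcl1 stood 2.70-fold above Bcl2l1 in 5 mM K+ and 6.03-fold above it in 60 mM K+. A list of the BCL2 family without Mcl1 had 13 genes with at least 10 reads, Bcl2l1, Bcl2l2 and Bcl2 included. Of these, 1 was called higher, 0 were called lower, and the median was 0.21. That gene was Bcl2l11, which encodes the pro-apoptotic BIM, with 94 and 189 reads at 1.11 (0.74 to 1.48). The pro-apoptotic effectors Bax and Bak1 lay at 0.41 and -0.13. Bax, Bbc3 and Pmaip1 are also in the list of p53 target genes.

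Myc (chromosome 15, 61816946 to 61821929) had 359 reads in 5 mM K+ against 1073 in 60 mM K+, a log2(fold-change) of 1.68 (1.51 to 1.86), or 3.21-fold. Its level was 20.2 and 56.1 FPKM, and it held 97.8% of the summed FPKM of the 3 MYC genes in 5 mM K+ and 97.7% in 60 mM K+. Mycn had 8 and 20 reads and Mycl 1 and 8 reads, both too few for a narrow interval. Max, the partner that MYC needs to bind DNA, had 595 and 579 reads and lay at 0.06 (-0.11 to 0.23). Of the genes of MAX partners that oppose MYC, Mnt lay at 1.00, not past the line of 1, with 962 and 1788 reads, Mxi1 at 0.80, Mxd1 at 0.46 and Mxd4 at -0.44. In this network list, 1 of 13 genes with at least 10 reads, Mycn, was called higher, and 0 were called lower, with a median of 0.29. The highest of them by FPKM was Mxd4 in 5 mM K+, at 63.0 FPKM, and Mnt in 60 mM K+, at 79.3 FPKM, where Mxd4 had 40.1 FPKM. Of 20 known MYC target genes, 1 was called higher and 0 lower, with a median of 0.24. It was Odc1, the gene of ornithine decarboxylase in polyamine synthesis, with 1594 and 3303 reads at 1.15 (1.07 to 1.24). Ldha lay at 0.87 and the ribosome biogenesis gene Rrs1 at 0.76, while Ncl at 0.21, Fbl at 0.21, Nolc1 at -0.08 and Cad at -0.51 were lower than these. The most abundant target, Eif4a1, had 3490 and 4609 reads and lay at 0.50.

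**Figure D4:**
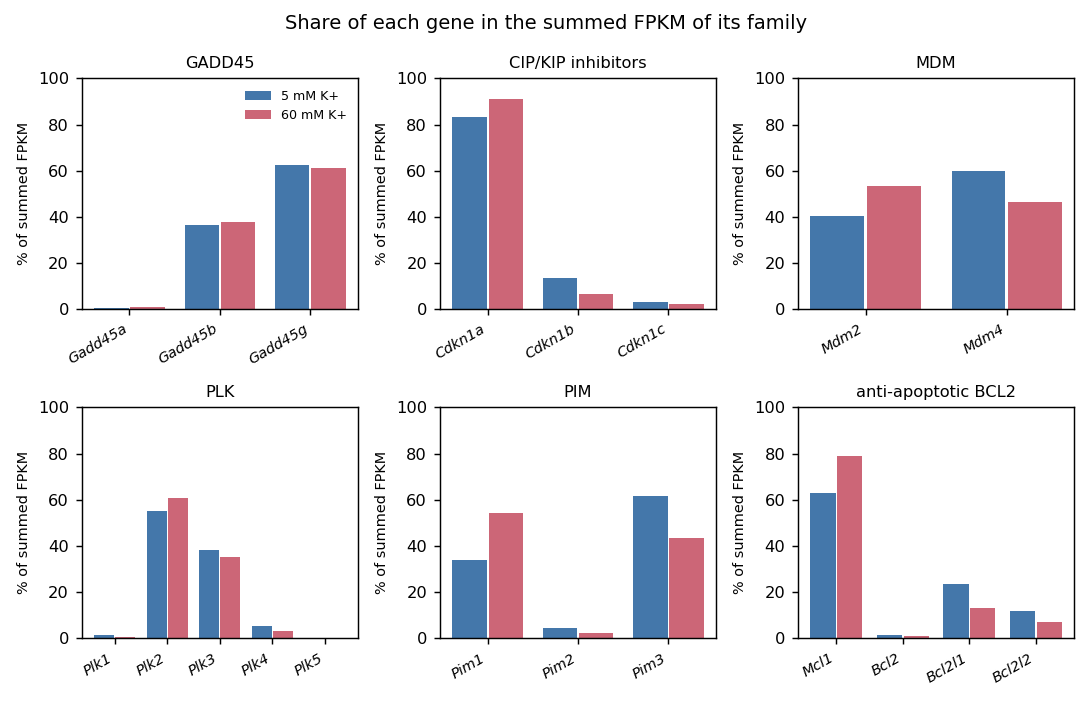
Vertical axis: percent of the summed deposited FPKM of a family that each gene takes, in the 5 mM K+ library (blue) and the 60 mM K+ library (red), in 6 families, with 1 library per bar and no error bar. The order of the highest genes differs between the libraries in the PIM family (Pim3, then Pim1) and in the MDM pair (Mdm4, then Mdm2), while Gadd45g, Cdkn1a, Plk2 and Mcl1 are highest in both.

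Downstream of GADD45, Map3k4 had 400 and 288 reads and lay at -0.37 (-0.60 to -0.15). Among 10 genes of this list with at least 10 reads, 2 were called higher and 0 lower, with a median of 0.09. They were the kinase genes of the p38 branch, Map2k3 with 945 and 1955 reads at 1.15 (1.04 to 1.26), and Map2k6 with 38 and 72 reads at 1.02 (0.44 to 1.63). Their substrate Mapk14, the main p38 gene, had 869 and 757 reads and lay at -0.10, and the JNK genes Mapk8 and Mapk9 lay at -0.15 and -0.29.

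The cell cycle genes around p21 were CDK, CDK inhibitor, G1 cyclin and pocket protein genes. With TMM scaling, 0 of the 15 with at least 10 reads were called higher and 0 lower, with a median of -0.05. Over all genes, 5.54% were called higher and 5.86% lower, so 0 of 15 lies near these shares. Some single genes had counting intervals clear of 0, among them Rbl1 at -0.92 (-1.49 to -0.37) and Cdkn1c at 0.84 (0.48 to 1.21). Ccnd1, the gene of cyclin D1, had 338 and 192 reads and lay at -0.71, and Ccnd2 had 2056 and 1595 reads and lay at -0.26. Ccnd2 was the highest gene of this list by FPKM in 5 mM K+ (120 FPKM, Ccnd3 95.7), and Ccnd3 in 60 mM K+ (98.9 FPKM, Ccnd2 86.2). Proliferation genes were scarce in both libraries, with a summed level of 104 CPM in 5 mM K+ and 156 CPM in 60 mM K+ over 16 genes. Among the 14 with at least 10 reads, 2 were called higher and 2 lower, with a median of 0.45. Cdc20, an activator of the anaphase-promoting complex, had 48 and 155 reads and lay at 1.79 (1.32 to 2.29). Aurka had 13 and 25 reads, with an interval from 0.02 to 2.13. The lower genes, Ccna2 with 18 and 4 reads and Cdk1 with 15 and 5 reads, also act in mitosis. The interval of Ccna2 ran from -4.09 to -0.47 and that of Cdk1 from -3.30 to 0.05, across 0. Pcna, the most abundant of the list, had 710 and 1064 reads and lay at 0.69. Genes of the list were thus called in both directions, and the calls other than that of Cdc20 rest on few reads.

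Heat shock genes encode chaperones of damaged proteins, and they too had more reads in 60 mM K+. Of 10 heat shock genes, 7 were called higher and 0 lower, with a median of 1.30 and a range from 0.41 to 3.57, and their summed level was 3270 CPM in 5 mM K+ and 8172 CPM in 60 mM K+. The genes called were Hspa1b (3.57), Hspa1a (2.98), Dnajb1 (2.07), Hspe1 (1.46), Hspb1 (1.36), Hsph1 (1.24) and Bag3 (1.19); Hspa1a and Hspa1b are near-identical copies, and how their reads were split is uncertain. Hspa8, the highest of the list by FPKM in 5 mM K+, lay at 0.44. Their part in the values of the 10 genes was not tested. Among genes with at least 100 reads, the median was 0.23 up to 1000 bp, the class of the 3 Gadd45 genes, 0.06 from 1000 to 2000 bp, -0.05 from 2000 to 3000 bp and -0.11 over 3000 bp. The share called higher did not follow this order: it was 1.95%, 3.72%, 2.78% and 2.72% in these classes. Mcl1, at 2138 bp, and Plk3, at 2350 bp, lay in the class from 2000 to 3000 bp, and the part of length in the values was not tested.

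**Figure D5:**
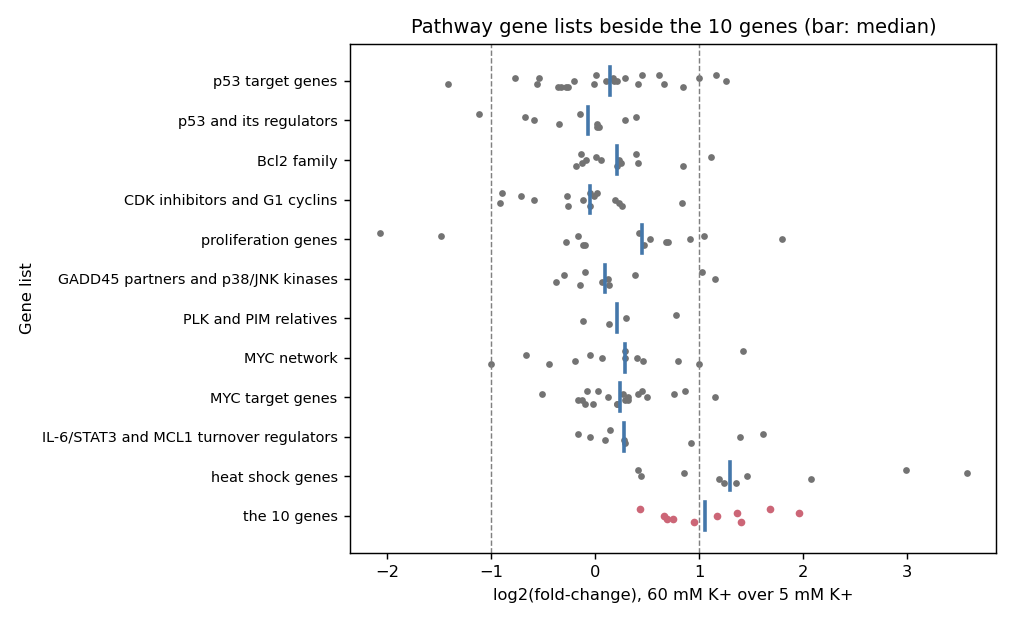
Horizontal axis: log2(fold-change) of 60 mM K+ over 5 mM K+; each row is a gene list, each point a gene with at least 10 reads, and each blue bar a median. The medians of the lists other than heat shock genes lie between -0.07 and 0.45, those of heat shock genes and of the 10 genes at 1.30 and 1.06, and dashed lines mark 1 and -1.

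With 2 libraries, the pattern of a gene is a single ratio, and genes with at least 500 reads were compared by the distance of their log2(fold-change). Nearest to Pim1 were Gm13889 at 1.95, the glucose transporter gene Slc2a1 at 1.96 and Procr, the gene of the endothelial protein C receptor, at 1.98. Nearest to Mdm2, at 0.43 each, were Slc39a14, Tmem176b and Ttll5.

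With total-count scaling in place of TMM, every log2(fold-change) is lower by 0.21. All 10 genes still lay above 0, Mcl1 at 0.96 was then below 1, and 4 of 10 were called higher, beside 4.05% of all genes. Values between 0 and 0.21, such as those of Cdkn1b and Max and the medians of the p53 target, GADD45 partner and BCL2 lists, change sign with this scaling. Calls of list genes near the line change as well. Bcl2l11 (1.11), Odc1 (1.15), Map2k3 (1.15), Map2k6 (1.02), Tnfrsf10b (1.16) and Bag3 (1.19 with TMM) are among those that fall below 1. Rbl1 (-0.92) and Cdkn2b (-0.90 with TMM) are among those that pass -1. The FPKM values also put 4 of 10 above 1, beside 3.35% of all genes with a pseudocount of 0.1 and 1.62% with a pseudocount of 1. The count stayed at 5 of 10 with upper-quartile scaling (5.25% of all genes), with median-of-ratios scaling (5.47%) and without a filter on reads (14.4%). It was also 5 of 10 where the whole counting interval had to lie beyond 1 (1.77%). A q-value under 0.005, recomputed here by the formula of DEGSeq, left 5 of 10 as well (3.05%). That q-value compares the reads of 2 libraries and not the conditions. With the fold rule it called 452 genes higher and 235 lower over all genes. The study's own DEGSeq list of changed genes is shorter in both directions, so the recomputation does not reproduce it. That list holds Cdkn1a, Mcl1, Pim1 and Myc but not Gadd45a. edgeR's exact test was run with an assumed coefficient of variation between libraries of 0.1, 0.2 and 0.4. The counts were then 5, 2 and 0 of 10, beside 3.01%, 0.931% and 0.0202% of all genes. With a fold of 1.5 as the line, 9 of 10 were called higher, beside 11.9% of all genes.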

How the data were processed

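Poly-A RNA was sequenced from mesenteric arteries, 1 library at 5 mM K+ and 1 at 60 mM K+. By the study's methods the authors aligned reads with TopHat2 to mm9; the submitters' processing notes give TopHat2 2.0.12, HTSeq 0.6.1 and edgeR 3.0.8. For the annotation and strand setting of the counting, the answer is not given in the sources used here. The authors deposited raw read counts per gene and FPKM values scaled by total counts. Depth was 10480918 and 11289598 counted reads.

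Gene names were matched for 32601 of 55573 identifiers, which held at least 99.1% of reads; list genes without a match were not analysed here. Counts were scaled by TMM (edgeR 4.0.16, R 4.3.3), with 0 set to 0.5. Intervals (95% Clopper-Pearson, or Poisson for FPKM) cover counting error only, and PCR copies are not independent molecules. A gene was called at an absolute log2(fold-change) above 1, if both libraries together held 10 reads or more; no test between conditions is possible without replicates. Alternatives were other scalings (DESeq2 1.42.0 for median of ratios), filters, FPKM pseudocounts, folds and tests on reads. The fold rule, the counting intervals and the recomputed DEGSeq q-value were tried on simulated counts that held counting error only. Scaling, lists and promoter matches were not part of that trial. Named were the 10 genes and their relatives, called genes of each list and its highest by FPKM in 5 mM K+, and the 3 genes nearest in change to the highest and lowest of the 10; Fas, Bbc3, Bax and other genes not called were named after their values were seen. The members and lists were chosen with earlier results of these data known. Gene positions are from GENCODE vM1 (mm9), and promoters from RefSeq (GRCm38.p6).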

Additional observations from a re-analysis of the deposited data

How the results depend on the processing

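No paired analysis was possible because there was a single library at each K+ concentration, which also leaves no replicate to omit. The 10 genes had a median log2(fold-change) of 1.06 with TMM, 0.85 with total counts, 0.85 with FPKM (pseudocount 0.1) and 0.84 with FPKM (pseudocount 1); no gene of the 10 changed direction under any scaling or with FPKM. The 5 genes called higher were 4 with total counts or FPKM, where Mcl1 fell short. They were 5 with upper-quartile or median-of-ratios scaling, with the counting interval beyond 1, and with the recomputed DEGSeq q-value. With at least 500 reads they were 4, since Gadd45a had 256 reads. They became 9 with a fold of 1.5, all but Mdm2, because that line is lower. With edgeR's exact test, at an adjusted p threshold of 0.05, 5 were called at an assumed coefficient of variation of 0.1, 2 (Pim1 and Myc) at 0.2 and 0 at 0.4; by construction this adds variation that 1 library per condition cannot measure.

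Over all genes, 822 were called higher and 869 lower. These were 601 and 1285 with total counts, so that 31.9% of calls were higher against 48.6%. With FPKM they were 497 and 1037 (pseudocount 0.1) and 240 and 193 (pseudocount 1). They were 3081 and 2491 with no count filter, 212 and 8 with at least 500 reads, and 263 and 73 with the counting interval. The recomputed DEGSeq q-value gave 452 and 235, more in each direction than the study's own DEGSeq list holds. With the assumed spreads of 0.1, 0.2 and 0.4 they were 447 and 238, 138 and 19, and 3 and 0. A fold of 1.5 gave 1761 and 1939. Of 50 values of the 10 genes under other scalings or FPKM, 28 left the counting interval of the TMM value and 22 stayed inside it, and of 44 list medians 4, all with total counts, moved by more than the median counting error of the genes in the list. With the 50 bases after the start included, 4 of 9 genes held the CRE core (Mcl1, Mdm2, Plk2 and Plk3), beside 20.8% of all promoters.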
